A study of Mus musculus with 248 samples.

Results

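The heat shock genes described here are 10 chaperone and cochaperone genes, chosen by name: Hspa1a, Hspa1b, Hsph1, Dnajb1, Bag3, Hspb1, Hspa8, Hsp90aa1, Hspd1 and Hspe1. All 10 were among the 18508 genes of the training table, and 9 were among the 13607 genes of the validation table, where Hspb1 had no row. The values are log2 CPM, the reads of a gene per 1000000 reads of the library on a log2 scale, from bulk RNA-seq of blood drawn repeatedly from C57BL/6 mice. The induced mice, called CM, carried Cbfb+/56M together with Mx1-Cre, so that Cre switches on Cbfb-MYH11, the fusion found in acute myeloid leukemia with inv(16). The reference mice, called Ctrl, were littermates that were wild type or carried only Cbfb+/56M or only Mx1-Cre; their genotype labels were CW (4 mice), HW (2) and WT (1) in the training cohort and CW (4), HW (2) and WT (2) in the validation cohort. Mice of both arms received poly(I:C), 14 mg/kg in 7 doses given every other day at 4 to 8 weeks of age. Poly(I:C) raises interferon, which drives the Mx1 promoter in many cell types, so recombination is not limited to blood cells. Month 0 was drawn before induction and months 1 to 10 after it. There were 55 libraries from 7 CM mice and 77 from 7 Ctrl mice in the training cohort. In the validation cohort there were 68 from 13 CM mice and 48 from 8 Ctrl mice, among them a leukemia library (L, over 20% cKit+ blasts) from each of 6 CM mice, and weekly libraries from 3 CM and 2 Ctrl mice.

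Heat shock proteins keep other proteins folded. When unfolded protein builds up, heat shock factor 1 (HSF1) is released from chaperones, binds heat shock elements in promoters and raises transcription of its targets within minutes. The inducible HSP70 genes Hspa1a and Hspa1b are the classic targets and are nearly silent in resting cells, while Hspa8 encodes the constitutive HSP70. Dnajb1 is an HSP40 that delivers clients to HSP70, Hsph1 (HSP110) is a nucleotide exchange factor of HSP70, and Bag3 is a cochaperone that hands HSP70 clients to autophagy. Hsp90aa1 is the inducible cytosolic HSP90, whose clients include many kinases. Hspd1 (HSP60) and Hspe1 (HSP10) form the mitochondrial folding chamber, and Hspb1 (HSP27) is a small heat shock protein.

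The promoters show what these genes share in sequence. Promoter windows of 300 bases, 250 before and 50 after an annotated start, were found in RefSeq (GRCm38.p6) for 8 of the 10 genes, all but Hspa8 and Hsp90aa1. They were searched for GAANNTTC and TTCNNGAA, the letters of a pair of facing heat shock element units, each of which reads the same on both strands. At least 1 match was present in 7 of the 8 genes, all but Dnajb1, and in 8 of their 11 windows, against 15.1% of all 32851 RefSeq windows of that length. The 15.1% counts windows and not genes. The windows with a match are not all separate stretches. Those of Hsph1 overlap each other, those of Hspa1a and Hspa1b are near copies, and Hspe1 and Hspd1 share a stretch. The 2 motifs can overlap, and a match is a description of letters and not a mapped site. The 4 windows below are shown because Hspa1a, Hspa1b and Hsph1 carry the month-to-month and month 1 results, and Hspe1 shares its window with Hspd1. Matches are in capitals, and each is written in the gene's own direction.
Hspa1a, chr17:34972107-34972406, minus strand: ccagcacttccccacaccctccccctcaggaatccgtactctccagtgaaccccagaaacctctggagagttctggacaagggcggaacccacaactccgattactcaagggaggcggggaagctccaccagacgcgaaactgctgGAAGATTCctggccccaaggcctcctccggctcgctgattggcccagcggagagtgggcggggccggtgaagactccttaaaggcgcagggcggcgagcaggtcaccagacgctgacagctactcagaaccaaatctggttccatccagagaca
Hspa1b, chr17:34959189-34959488, minus strand: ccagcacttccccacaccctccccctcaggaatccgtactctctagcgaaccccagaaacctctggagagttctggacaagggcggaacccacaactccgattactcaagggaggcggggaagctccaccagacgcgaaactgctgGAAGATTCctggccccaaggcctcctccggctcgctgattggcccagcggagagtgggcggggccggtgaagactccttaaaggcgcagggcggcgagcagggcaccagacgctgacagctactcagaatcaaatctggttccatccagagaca
Hsph1, chr5:149636287-149636586, minus strand: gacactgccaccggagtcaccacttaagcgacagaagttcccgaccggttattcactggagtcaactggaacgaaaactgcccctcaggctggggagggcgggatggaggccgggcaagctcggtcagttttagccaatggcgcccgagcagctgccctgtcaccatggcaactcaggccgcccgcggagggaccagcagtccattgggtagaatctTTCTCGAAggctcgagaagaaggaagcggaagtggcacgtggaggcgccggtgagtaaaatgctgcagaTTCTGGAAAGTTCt
Hspe1, chr1:55087898-55088197, plus strand: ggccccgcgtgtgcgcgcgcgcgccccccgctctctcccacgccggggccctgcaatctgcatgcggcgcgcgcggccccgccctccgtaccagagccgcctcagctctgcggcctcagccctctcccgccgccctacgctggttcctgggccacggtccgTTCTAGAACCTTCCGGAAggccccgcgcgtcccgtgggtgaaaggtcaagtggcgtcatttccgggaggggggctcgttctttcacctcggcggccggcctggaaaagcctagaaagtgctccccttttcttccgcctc
The windows of Hspa1a and Hspa1b differed at 4 of 300 bases and held the same single match at the same place. The Hspe1 window held 3 overlapping matches in 1 run, and it shared 285 bases with 1 of the 2 annotated Hspd1 windows, since both genes start from the same stretch of chromosome 1 in opposite directions. The Hsph1 window held 3 matches.

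Libraries held 15996368 to 36259517 reads in the training cohort and 8682789 to 34413068 reads in the validation cohort, over the genes of each table. The labels give the tissue as PBMC. Markers of B cells summed to a median of 7599 CPM in training CM libraries and 8579 CPM in training Ctrl libraries at month 0, against 2533 and 3529 CPM for mature neutrophil markers in the same CM and Ctrl libraries. Transcripts of the neutrophil list were thus present, and whether they came from granulocytes was not tested. In 1 library, that of CM mouse 2731 at validation month 0, sex-linked transcripts went against the sex label. In 5 others they were of both kinds, with Xist above 4 log2 CPM in a male or the mean of Y-linked genes above 0 log2 CPM in a female. These 5 were CM mouse 2718 at month 0, CM mouse 2690 at months 1 and 2, Ctrl mouse 2705 at month 0 and Ctrl mouse 2689 at month 6, all of the validation cohort. Validation tests are given below also with these 6 libraries left out where a stated result rests on them. Myh11 was at 0.59 to 3.78 log2 CPM in the training CM mice after month 0 and at 1.1 to 2.29 log2 CPM in the 2 Ctrl mice with the genotype label HW, against at most -0.59 in the other 5 Ctrl mice. Before induction, at month 0, it already stood at 1.73 to 2.16 log2 CPM in the training CM mice. The HW mice had 1.66 and 1.81 log2 CPM then. Per the labels, validation months were sequenced in separate runs that each held both arms, so a month and its run cannot be told apart there. Months 0, 1 and L came from unstranded libraries and the others from stranded ones. Training libraries were spread over 7 library groups. In bulk samples, fewer cells of a type and less RNA per cell cannot be told apart.

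At month 0 the members covered a wide span of levels, given here as reads per kilobase of exon per 1000000 reads (mean ± SD). Hspa8 was the most abundant, at 70.4 ± 8.75 in the 7 CM mice and 54.2 ± 10.2 in the 7 Ctrl mice of the training cohort. Dnajb1 followed, with 46.1 ± 15.8 in CM mice against 34.7 ± 9.38 in Ctrl mice, then Hsp90aa1 with 25.5 ± 6.12 in the CM arm against 24.7 ± 2.23 in the Ctrl arm. Hsph1 had 17.5 ± 4.67 in CM mice against 8.86 ± 5.0 in Ctrl mice. The next 4 genes, Hspa1b, Hspd1, Hspa1a and Hspe1, had means of 7.37 to 13.6 in CM mice and 4.12 to 7.77 in Ctrl mice, and their order was not separated beyond their spread. Bag3 had 4.82 ± 1.76 in the CM arm and 3.89 ± 0.494 in the Ctrl arm. Hspb1 was close to absent, with 0 to 20 reads in CM libraries and 0 to 2 reads in Ctrl libraries at month 0, where up to 3 reads cannot be told from 0. Validation month 0 had the same first pair, Hspa8 at 76 ± 13.1 in 10 CM mice and 84 ± 28.6 in 6 Ctrl mice, and Dnajb1 at 33.6 ± 5.20 in CM and 36.6 ± 13.4 in Ctrl mice.

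Hspa1a (chr17:34969359-34972156) and Hspa1b (chr17:34956429-34959238, GRCm38.p6) lie side by side on the minus strand and encode nearly the same protein, so reads that match both could have been dropped or assigned to either, and the level of each alone is uncertain. The log2 level of Hspa1b minus that of Hspa1a had a median of 0.70 in the training libraries, with a range of -0.94 to 2.75. In the validation libraries its median was 1.42, and Hspa1b was the higher in every one, by 0.33 to 4.90. The pair moved together, with Pearson's r of 0.92 over training libraries once the mean of each arm and time was taken out, which leaves out a group of 1 library.

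The inducible HSP70 genes had some of the widest month-to-month swings of the training table, in both arms. In CM mice Hspa1a averaged 4.11, 1.79, 4.42, 2.84 and 0.69 log2 CPM at months 0 to 4 (n = 7), and -0.14 and 0.16 log2 CPM at months 5 and 6 (n = 5). In the 7 Ctrl mice, it averaged 3.32, 2.41, 5.39, 3.10, 1.31, 0.08, 0.58, 1.94, 0.57, 1.14 and 0.07 log2 CPM at months 0 to 10. Month 2 had the highest mean in both arms, and the decline to month 4 or 5 was seen in both. In CM mice the mean of month 2 lay above that of month 0 only through mouse 3334, at 7.70 log2 CPM, with the next at 4.67. At month 2 the 7 CM libraries stood at 3.01, 3.34, 3.63, 4.03, 4.54, 4.67 and 7.70 log2 CPM, and the 7 Ctrl libraries at 4.62, 4.77, 4.98, 5.13, 5.47, 5.96 and 6.78 log2 CPM. By month 5 the Ctrl libraries lay between -1.49 and 1.34 log2 CPM, which is 8 to 67 reads, so that no Ctrl library of month 5 reached the lowest one of month 2.

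**Figure D1:**
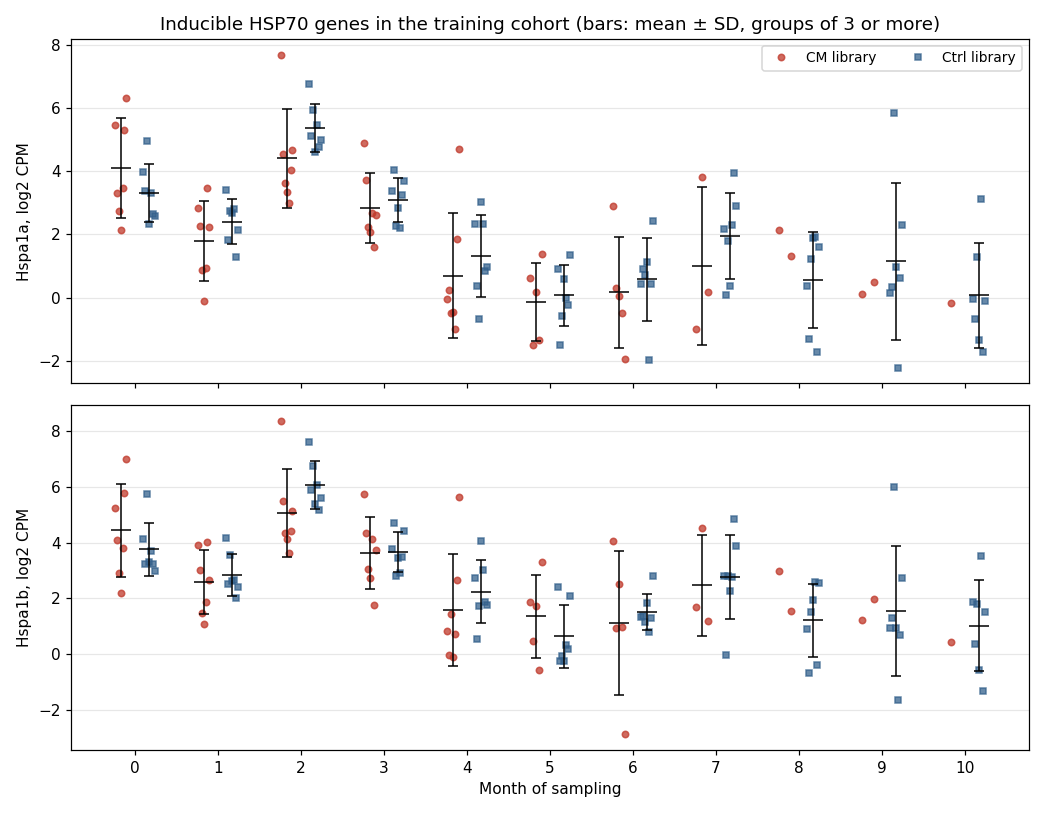
Hspa1a (upper panel) and Hspa1b (lower panel) in log2 CPM (y axis) by month of sampling (x axis) in the training cohort. Each circle is a CM library and each square a Ctrl library, and bars give mean ± SD where a group has 3 or more libraries. Both arms have their highest mean at month 2, where Hspa1a averaged 4.42 in CM and 5.39 in Ctrl mice. The CM mean there includes mouse 3334, at 7.70 for Hspa1a (next 4.67) and 8.37 for Hspa1b (next 5.49). In Ctrl mice every mean of months 4 to 10 is below every mean of months 0 to 3, with the highest of them for Hspa1a at month 7 (1.94).

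The range of the 11 Ctrl month means was 5.32 log2 units for Hspa1a and 5.44 for Hspa1b, against a median range of 2.50 over the 11264 genes with a mean above 1 log2 CPM. Only 0.071% and 0.0533% of those genes had a larger range. After median-ratio scaling, which shifts each library so that the median gene keeps its level, the ranges were 5.25 and 5.37 against a median range of 0.89, and 2.31% and 1.82% of genes were larger. Mice within a group also differed: the pooled SD within arm and month was 1.45 log2 units for each of the pair, against a median of 0.63. A limma F test over months with the mouse as a block called 6 of 10 members across CM months 0 to 4, Hspa1a (adjusted p = 4.23e-05), Hspa1b (0.000588), Hspa8 (0.0127), Hsp90aa1 (0.0351), Dnajb1 (0.0369) and Hsph1 (0.0474), beside 41.6% of all genes. With median-ratio scaling 2 of 10 were called there, and the count was also 2 without mouse 3336, 3341 or 3357. Across Ctrl months 0 to 10 the same test called all 10 members, with adjusted p from 2.82e-21 for Hsp90aa1 to 0.0235 for Hspb1. It called 17072 of 18508 genes (92.2%), so the count of 10 is near the background. No member was called for an arm-by-month interaction over months 0 to 4 in limma, where 92 genes (0.497%) were called, and limma-voom called 0 too. At an unadjusted p under 0.05 there was 1 member, Hsph1, and without CM mouse 3334 it was called (adjusted p = 0.0243). Month 2 and month 5 Ctrl libraries shared 4 library groups, and within each of the 4 Hspa1a was higher at month 2, by 4.13 to 7.01 log2 units. No month 5 Ctrl library reached the lowest of month 2, so this direction was fixed in advance and does not check the library group.

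The other members moved over smaller ranges. Hsph1 was highest at month 2 in CM mice (6.97 log2 CPM) and at month 3 in Ctrl mice (7.33 log2 CPM), and lowest at month 8 in Ctrl mice (4.35 log2 CPM). Its CM mean at month 2 includes mouse 3334 at 9.39 log2 CPM, with the next CM library at 7.97 log2 CPM. Dnajb1 ranged over 2.96 log2 units between Ctrl months, Hspa8 over 3.35, Hsp90aa1 over 2.77, Hspd1 over 2.97 and Hspe1 over 3.40. In the deposited values Bag3 was the steadiest, with a range of 1.07 log2 units, smaller than in 91.6% of genes. Once the median gene was held level, the ranges of Hspa8, Hspd1 and Hspe1 shrank to 1.30, 0.90 and 1.44 log2 units, while that of Bag3 widened to 2.40. Hspb1 stayed between 0 and 29 reads in every training library.

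**Figure D2:**
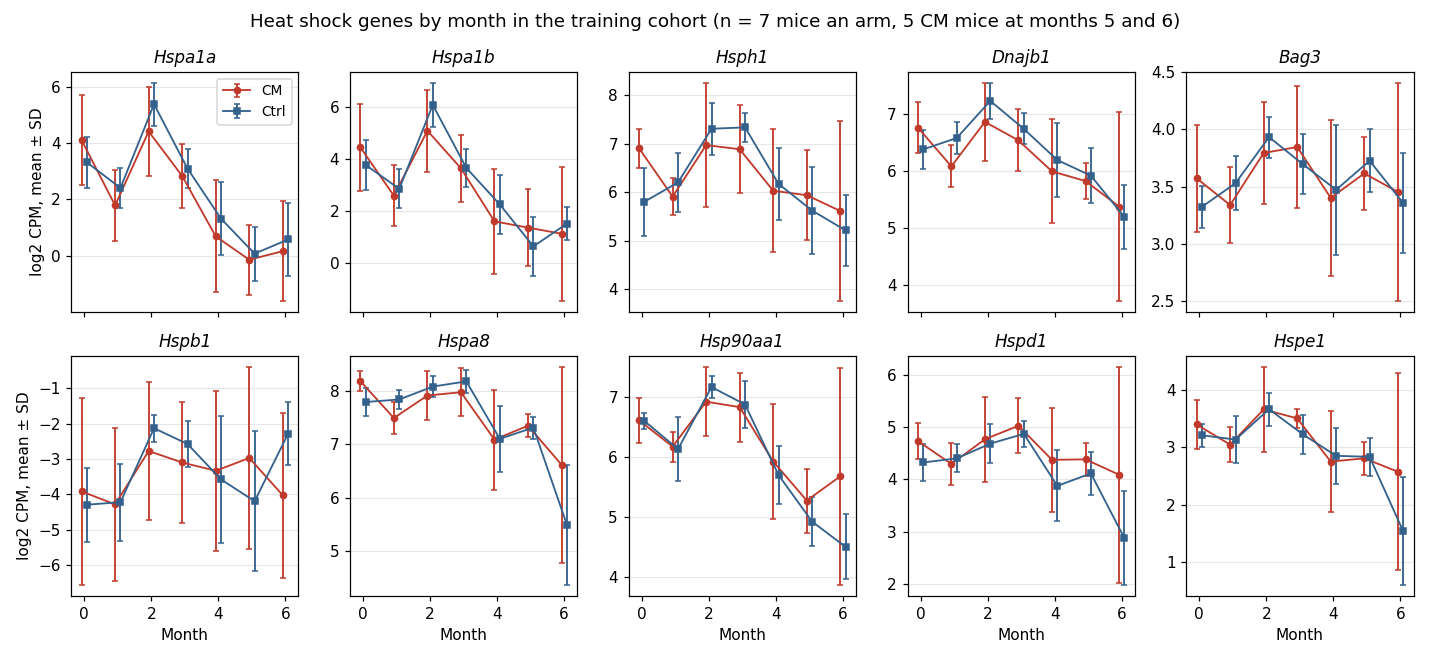
Mean ± SD of log2 CPM (y axis) by month (x axis) for the 10 heat shock genes in the training cohort, with CM as circles and Ctrl as squares (n = 7 mice an arm, 5 CM mice at months 5 and 6). The largest swings are those of Hspa1a and Hspa1b, with ranges of 5.32 and 5.44 between Ctrl month means. Bag3 is nearly level at 1.07 in these deposited values, and its range is 2.40 after median-ratio scaling.

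In the validation cohort the high months were others. Hspa1a averaged 1.80, 0.85, 1.86, 0.95, 1.28, 3.33 and 1.96 log2 CPM at months 0 to 6 in CM mice, and 1.97, 1.24, 2.16, 1.85, 1.75, 3.07 and 3.35 log2 CPM in Ctrl mice. Its lowest month was month 1 in both arms, and its highest was month 5 in CM and month 6 in Ctrl mice. The range of the means was 2.48 log2 units in CM and 2.12 in Ctrl mice, larger than in all but 3.78% and 2.42% of the 12476 genes with a mean above 1 log2 CPM. Each validation month was its own sequencing run, so these differences cannot be told apart from runs.

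The direct comparison of arms asks whether these genes differ with the induced fusion month by month. Training months 4 and 6 include the last libraries of CM mice 3338, 3357 and 3341. Over 7 months in each cohort, with sex as a covariate in limma, 1 of the 14 comparisons called a member. Hsph1 was lower in CM mice at validation month 1, by a log2 fold change of -0.45 ± 0.15 (SE; adjusted p = 0.0362), with means of 5.72 log2 CPM in 10 CM mice and 6.16 log2 CPM in 6 Ctrl mice. In that comparison 28.5% of all genes were called. The call was lost with median-ratio scaling (-0.34, adjusted p = 0.0991), with the fit over all months with the mouse as a block (adjusted p = 0.512) and without any 1 of 7 mice, 2684, 2686, 2689, 2692, 2702, 2708 or 2720, with adjusted p of 0.052 to 0.103. With the libraries of mixed sex signal left out it was still called (-0.38 ± 0.13, adjusted p = 0.0452). No member's CM and Ctrl libraries failed to overlap in any of the 14 comparisons, where 0.00735% to 5.43% of all genes did. The training table gave 0 called members in each of months 0 to 6, where 0.0054%, 5.02%, 11.7%, 0.632%, 0.0054%, 0.0% and 0.0162% of genes were called. The validation table gave 0 in months 0 and 2 to 6, where 0.147% were called at month 2 and 0.0% at the others. Limma-voom also called 0 members in each of these, and at an unadjusted p under 0.05 there were 5 members at training month 0, 1 at training month 1 and 0 at the others.

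At training month 0 no member passed the test, and the lowest adjusted p was 0.347, for Hsph1 and Hspa8. Hsph1 averaged 6.90 ± 0.40 log2 CPM in CM and 5.80 ± 0.70 log2 CPM in Ctrl mice (SD, n = 7 each), a limma log2 fold change of 1.17 ± 0.30 (unadjusted p = 0.00161, adjusted p = 0.347). Hspa8 averaged 8.18 ± 0.19 log2 CPM in CM and 7.79 ± 0.27 log2 CPM in Ctrl mice, a difference of 0.46 ± 0.11 (limma adjusted p = 0.347). Together with Hspa1a (1.35 ± 0.44), Hspa1b (1.23 ± 0.51) and Dnajb1 (0.51 ± 0.18), 5 of 10 members had an unadjusted p under 0.05, as did 1715 of 18508 genes (9.27%). Validation month 0 had 0 such members, and Hsph1 averaged there 6.62 log2 CPM in the 10 CM mice and 6.93 log2 CPM in the 6 Ctrl mice. With the libraries of mixed sex signal left out, the limma difference there was -0.03 ± 0.21.

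At later months CM mouse 3334 changed the counts. It had the highest Hspa1a of training month 2, 7.70 log2 CPM, and the next CM library stood at 4.67 log2 CPM. Without it, Hspa1a was lower in CM than in Ctrl mice at month 2 by -1.24 ± 0.35 (limma adjusted p = 0.0436), and Dnajb1 was lower in CM mice at month 1 by -0.57 ± 0.15 (adjusted p = 0.0337). With all mice, 5.46% of genes were called higher in CM mice and 6.25% lower at month 2, and 3.68% higher and 1.34% lower at month 1. At training month 6, 1 fit over all months with the mouse as a block called 3 members higher in CM mice: Hsp90aa1 at 1.18 ± 0.38 (adjusted p = 0.0285), Hspd1 at 1.22 ± 0.43 (0.0458) and Hspa8 at 1.14 ± 0.41 (0.0478). That fit called 13.5% of all genes at month 6, with 10.6% of all genes higher in CM mice. With the library group added to that fit none was called, with adjusted p of 0.0651 to 0.0904 for the 3.

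Within CM mice, the inducible HSP70 genes and Hsph1 fell at month 1, after induction, in both cohorts. In training CM mice Hspa1a stood at -0.12, 0.87, 0.95, 2.23, 2.27, 2.84 and 3.48 log2 CPM at month 1, against 2.13, 2.74, 3.31, 3.48, 5.30, 5.47 and 6.34 log2 CPM at month 0. The libraries overlapped, and all 7 mice were lower at month 1 than at their own month 0. With the mouse as a block, limma gave -2.32 ± 0.30 for Hspa1a (adjusted p = 0.0012), -1.86 ± 0.35 for Hspa1b (0.0094), -0.99 ± 0.21 for Hsph1 (0.0198) and -0.69 ± 0.14 for Hspa8 (0.0155). Those 4 members were called lower of 10, beside 2.25% of all genes called lower, 3.87% called higher and 6.12% called in all. Without mouse 3357 the count was 2. In validation CM mice the same genes were lower at month 1, Hspa1a by -0.95 ± 0.18 (limma adjusted p = 0.00131), Hspa1b by -0.56 ± 0.15 (0.00863), Hsph1 by -0.90 ± 0.11 (7.55e-05) and Hspa8 by -0.27 ± 0.07 (0.007), and Hspd1 was lower by -0.33 ± 0.08 (0.007). That made 5 of 9 members lower, beside 19.2% of all genes called lower and 42.8% called in all. Without the mouse as a block, 3 of the 5 were called. With the libraries of mixed sex signal left out, each of the 5 was called lower, with Hspa1a at -1.01 ± 0.17 (adjusted p = 0.00263) and Hsph1 at -0.81 ± 0.12 (0.00176).

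Ctrl mice had no called member at month 1 in either cohort with limma, where 0.0% of training genes and 33.3% of validation genes were called. In training Ctrl mice Hspa1a was nonetheless at -0.91 ± 0.28 (unadjusted p = 0.0122, limma adjusted p = 0.614), and 4 of 10 members had an unadjusted p under 0.05, beside 6.22% of all genes, with 0 called by limma-voom. In validation Ctrl mice the differences ran from -0.95 ± 0.46 for Hspa1b to 0.15 ± 0.16 for Bag3, with 3 of 9 members at an unadjusted p under 0.05, beside 45.4% of all genes. Ctrl mouse 2705, whose month 0 library is of mixed sex signal, had the highest month 0 values of Hsph1, Hsp90aa1, Hspd1 and Hspe1, and without it Hsph1 (-0.38 ± 0.07, limma adjusted p = 0.0158) and Hspd1 (-0.32 ± 0.06, adjusted p = 0.0175) were called lower. Median-ratio scaling and limma-voom each called 1 member there. The difference between the arms' changes was itself called in the training cohort for Hsph1 (-1.40 ± 0.32, limma adjusted p = 0.0467) and Hspa8 (-0.76 ± 0.17, adjusted p = 0.0422), beside 1.2% of genes called in all and 0.2% called lower. Neither was called with median-ratio scaling, and at least 1 of the calls was lost when any 1 of 13 of the 14 mice was left out, all but mouse 3334. Before induction, at month 0, both genes already averaged higher in CM than in Ctrl mice, though neither passed the arm test there. The difference between the arms' changes includes that month 0 gap. The validation cohort called 0 of 9 members for that difference in limma, beside 12.5% of genes, with Hsph1 at -0.14 ± 0.30 and Hspa8 at 0.14 ± 0.15 and 0 members at an unadjusted p under 0.05 or called by limma-voom. With the libraries of mixed sex signal left out, 0 were called and 2 had an unadjusted p under 0.05, with Hsph1 at -0.44 ± 0.17 (limma adjusted p = 0.143). Among 26 other HSF1-dependent chaperones and cochaperones, 6 were called lower and 0 higher at training month 1 in CM mice, and 0 were called in Ctrl mice. For the validation cohort, 14 of 24 were called lower and 2 higher in CM mice, and 7 lower and 4 higher in Ctrl mice. The difference between the arms' changes was called for 0 of the 26 in the training cohort, and for 2 higher and 1 lower of the 24 in the validation cohort. Of 16 immediate early genes, which are induced within minutes of a stimulus, 3 were called lower at training month 1 in CM mice and 0 in Ctrl mice. In the validation cohort 13 were called lower in CM mice, with a median log2 fold change of -1.09, and 9 lower and 1 higher in Ctrl mice, with a median of -0.76. The difference between the arms' changes was called for 0 of them in the training cohort and for 4, all lower in CM mice, in the validation cohort. Blood cell markers moved too. All 8 NK cell markers were called lower at month 1 in CM mice of both cohorts, with median log2 fold changes of -1.87 and -1.75, and 7 of 8 were called lower in validation Ctrl mice. All 10 erythroid markers were called higher at training month 1 in CM mice, with a median of 3.61. The part of these in the heat shock values was not tested.

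At overt leukemia Hsp90aa1, Hspd1, Bag3 and Hspa8 were called higher than at the same mice's month 0 and Hsph1 lower. The calls for Hspa8 and Hsph1 were lost under several settings, given below. The inducible HSP70 genes did not pass the test. Hsp90aa1 stood at 7.94, 7.73, 7.87, 7.44, 8.04 and 7.93 log2 CPM in the leukemia libraries of mice 2684, 2690, 2708, 2718, 2719 and 2731, against 6.03, 6.09, 5.96, 6.40, 6.39 and 6.32 log2 CPM at their own month 0. Every leukemia library was above every month 0 library. In limma with the mouse as a block the log2 fold change was 1.62 ± 0.13 (adjusted p = 2.23e-05), and it was 1.40 ± 0.12 against month 1 (adjusted p = 3.86e-05). Hspd1 stood at 6.73, 6.63, 6.53, 6.91, 6.95 and 7.16 log2 CPM at leukemia, against 5.68, 5.69, 5.50, 5.96, 6.09 and 6.10 log2 CPM at month 0 in the same order of mice. These groups did not overlap either, and the change was 0.98 ± 0.09 (limma adjusted p = 4.11e-05), with 1.25 ± 0.12 against month 1 (adjusted p = 6.58e-05). Its partner Hspe1 was higher in 6 of 6 mice by 0.10 to 0.55 log2 units, with a mean change of 0.26 ± 0.12 that did not pass (limma adjusted p = 0.0984).

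**Figure D3:**
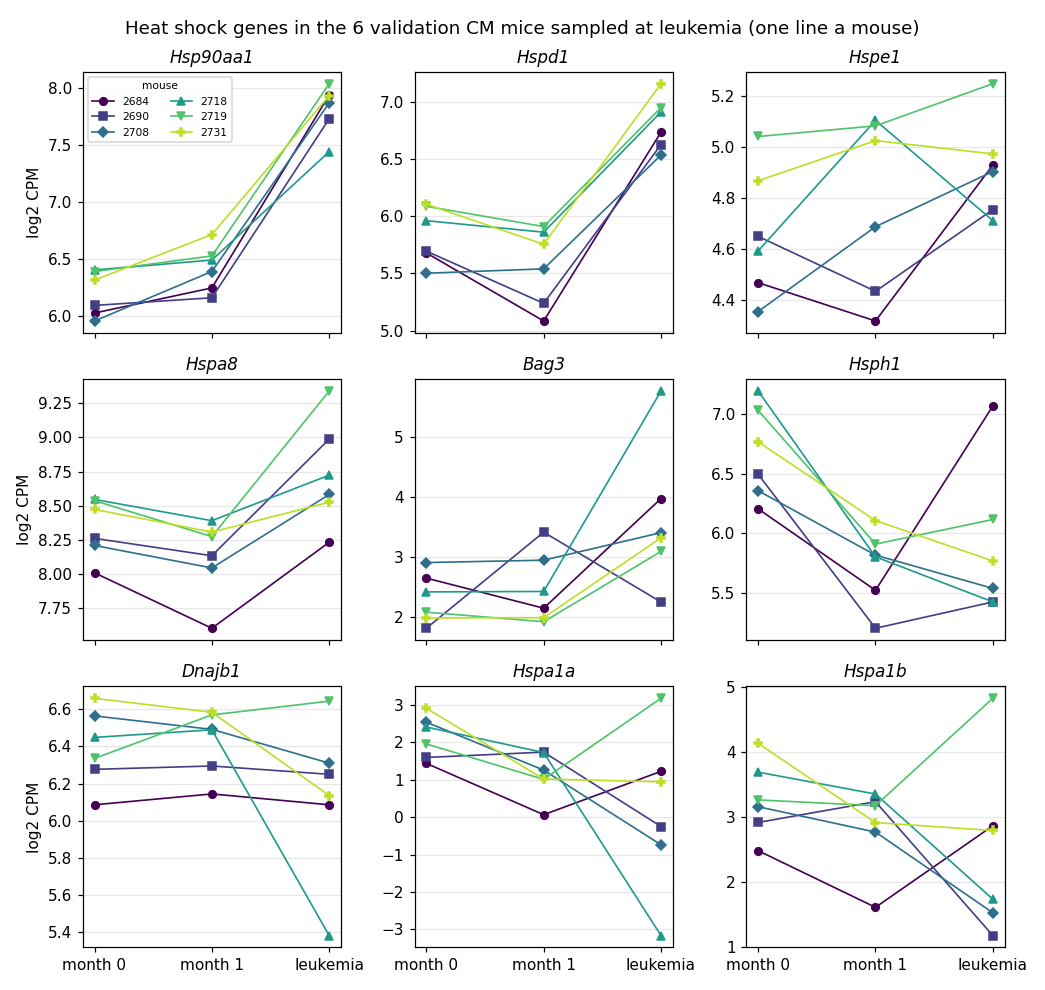
Log2 CPM (y axis) of 9 heat shock genes at month 0, month 1 and leukemia (x axis) in the 6 validation CM mice with a leukemia library, 1 line a mouse. Hsp90aa1 and Hspd1 are higher at leukemia in all 6 mice without overlap, and Hspa1a and Hspa1b fan out at leukemia, with Hspa1a between -3.17 and 3.18.

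Hspa8 rose less, by 0.39 ± 0.13 (limma adjusted p = 0.0288), and was higher in 6 of 6 mice. That call was lost with median-ratio scaling (adjusted p = 0.0746), without the mouse as a block (0.0579) and without mouse 2690, 2708 or 2719 (0.0658 to 0.092). Bag3 rose by 1.32 ± 0.38 (limma adjusted p = 0.014). Its leukemia libraries stood at 3.98, 2.26, 3.41, 5.77, 3.10 and 3.32 log2 CPM in the order of mice above, against 2.65, 1.82, 2.91, 2.42, 2.09 and 1.99 log2 CPM at month 0. Mouse 2718 was the highest of them, and without it the change was 0.92 ± 0.23 (adjusted p = 0.0118). Against month 1 Bag3 was at 1.16 ± 0.50 and did not pass (limma adjusted p = 0.073), and without mouse 2690, whose month 1 library is of mixed sex signal, it was called (1.62 ± 0.41, adjusted p = 0.0115).

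Hsph1 fell against month 0, by -0.78 ± 0.29 (limma adjusted p = 0.0411). Mouse 2684 went the other way, with 7.07 log2 CPM at leukemia and 6.21 log2 CPM at month 0, while the other 5 mice were lower at leukemia. The call was lost without mouse 2690, 2708, 2718, 2719 or 2731, with adjusted p of 0.0863 to 0.115. Against month 1 Hsph1 was at 0.16 ± 0.25 (limma adjusted p = 0.584). Hspa1a stood at 1.22, -0.25, -0.74, -3.17, 3.18 and 0.95 log2 CPM at leukemia in the same order of mice, against 1.44, 1.60, 2.54, 2.41, 1.96 and 2.91 log2 CPM at month 0. It was lower in 5 of 6 mice, and the mean change of -1.94 ± 0.79 did not pass (limma adjusted p = 0.0582), though it did with median-ratio scaling (-2.01, adjusted p = 0.046). Hspa1b at -0.79 ± 0.48 and Dnajb1 at -0.26 ± 0.17 did not pass.

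In all, 4 of 9 members were called higher and 1 lower at leukemia against month 0, where 31.4% of all genes were called higher, 33% lower and 64.5% in either direction. The members' median log2 fold change was 0.26, against -0.04 over all genes. Against month 1, 3 of 9 were called higher and 0 lower, beside 29.2% and 34.1% of all genes and 63.3% called in all. Groups that do not overlap were 2 of 9 members against month 0, beside 43.8% of all genes. With the month 0 libraries of mice 2718 and 2731 left out, 4 members were called, Hsp90aa1 (1.77 ± 0.11), Hspd1 (0.97 ± 0.10), Bag3 (0.82 ± 0.25) and Hspa8 (0.53 ± 0.14) higher, and Hsph1 was not (-0.48 ± 0.34, limma adjusted p = 0.256). Without mouse 2731 alone, Hsp90aa1 was at 1.63 ± 0.15, Hspd1 at 0.97 ± 0.10, Bag3 at 1.32 ± 0.44 and Hspa8 at 0.46 ± 0.14, all still called in limma (adjusted p of 0.000151, 0.000232, 0.0325 and 0.022). The count of called members was 3 without mouse 2690 or 2708. The leukemia libraries were sequenced in 1 run, apart from the runs of months 0 and 1, per the labels, so leukemia and run cannot be told apart.

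Other chaperones moved in both directions. All 8 genes of the cytosolic chaperonin CCT, which folds actin and tubulin, were called higher at leukemia against month 0, with a median log2 fold change of 0.74. Cct6a was higher by 1.2, Cct8 by 0.94 and Cct7 by 0.93. Among 24 other HSF1-dependent chaperones and cochaperones, 9 were called higher and 6 lower. Hspa4l, an HSP110 relative, was higher by 1.44, while Ier5, a positive regulator of HSF1, was lower by 1.92 log2 units and Dedd2 by 1.51. Of 10 mitochondrial chaperones and proteases, 4 were called higher, among them the mitochondrial HSP70 gene Hspa9 by 1.09 and the protease subunit Clpp by 0.87, and 1 lower. Of 17 endoplasmic reticulum chaperones, 5 were called higher, among them Pdia3 by 1.21, Canx by 1.07 and Calr by 0.91, and 4 lower. Hsf1 itself was lower by 0.52 log2 units (limma adjusted p = 0.0371), and it was the only one of 3 heat shock factors and binding partners called. None of these lists holds any of the 10 heat shock genes described here.

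Markers of blood cell types moved between the same libraries. Kit, the blast receptor used to score disease, was higher by 8.84 log2 units at leukemia against month 0. All 18 proliferation genes were called higher, with a median log2 fold change of 3.27, and 9 of 11 stem and progenitor genes were higher. B cell markers summed to 132.76 to 612.6 CPM in the 6 leukemia libraries, against 4597 to 9649 CPM in 10 CM libraries of month 0, and 9 of 9 were called lower. Basophil and mast cell markers summed to 9795 to 22176 CPM at leukemia, against 99.3 to 356 CPM at month 0. No marker of these lists was at 0 reads in all libraries of either group. Of the 16 immediate early genes, 11 were called lower and 1 higher, with Fos lower by 3.21 log2 units and Dusp1 by 3.72. The part of these shifts in the heat shock values was not tested.

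The last training library of each CM mouse, taken at months 4 to 10, gave a different set of calls. Hspa1a stood at -0.48, -1.0, 0.04, -1.22, -0.99, 0.48 and -0.17 log2 CPM in the last libraries of mice 3338, 3357, 3341, 3334, 3336, 3370 and 3368, which is 11 to 41 reads. In the same order the month 0 libraries stood at 2.74, 3.48, 2.13, 5.47, 3.31, 6.34 and 5.30 log2 CPM. Every last library was below every month 0 library, and limma gave -4.59 ± 0.52 (adjusted p = 0.0001). Hspa1b fell by -3.04 ± 0.62 (limma adjusted p = 0.00201), with 6 of 7 mice lower. Both calls held under each of the 11 other settings tried for this comparison, with Hspa1a between -5.00 and -4.24. They were 2 of 10 members, both lower, beside 35.9% of all genes called lower, 10.1% called higher and 46% in either direction. Hspa1a was the only member whose groups did not overlap, beside 23.1% of all genes.

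The rise of Hsp90aa1 and Hspd1 seen at validation leukemia was not called here in the deposited values. The median log2 fold change of all genes was -0.57 here, against -0.04 at validation leukemia. Hsp90aa1 was at 0.17 ± 0.39 (limma adjusted p = 0.743), with 4 of 7 mice higher, and Hspd1 at 0.32 ± 0.43 (adjusted p = 0.58), with 5 of 7 higher. Their last libraries spread widely, from 4.62 to 7.63 log2 CPM for Hsp90aa1 and from 2.29 to 6.20 log2 CPM for Hspd1, against 5.90 to 7.08 and 4.34 to 5.24 log2 CPM at month 0. Mouse 3368 was the lowest for both, and Kit stood at 2.34 log2 CPM in its last library, against a mean of 7.25 log2 CPM over the 7. Globin transcripts made up 21.7% of the reads of that library, against a median of 0.541% over the 7 last libraries and 1.12% at month 0. After median-ratio scaling, Hspd1 was higher in the last library than at month 0 in every CM mouse but 3368. Hspb1 had 0 or 1 read in the last libraries, against 0 to 20 at month 0, so no fold is given. The 26 HSF1-dependent chaperones and cochaperones had 2 called higher and 5 lower. Dnaja1, an HSP40, was lower by 2.31 log2 units, Dnajb5 by 2.20 and Ier5 by 1.69, and Cct7 was the only CCT gene called, higher by 1.19.

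Set against the change of Ctrl mice to month 6, the CM change to the last library differed for 5 members in limma with sex as a covariate. It was higher for Hsp90aa1 (2.11 ± 0.47, adjusted p = 0.00477), Hspd1 (1.65 ± 0.54, 0.0236) and Hspa8 (1.46 ± 0.52, 0.0332), and lower for Hspa1a (-2.52 ± 0.64, 0.00804) and for the barely detected Hspb1. All genes had a median of 0.61 in that comparison, so directions are relative to a shift of the whole table, and 37.5% of genes were called, 29.5% higher and 7.98% lower. With median-ratio scaling 6 members were called, only Hsp90aa1 higher (1.12 ± 0.31, adjusted p = 0.0153), and Hspa1a (-3.51), Hspa1b (-2.50), Hsph1 (-1.24), Dnajb1 (-0.75) and Hspb1 lower, beside 14.2% of all genes called higher and 23.1% lower on that scale. The call for Hspa1a was lost with no sex covariate (-1.85, adjusted p = 0.0577), without the mouse as a block (0.0526) and with month 10 as the Ctrl time (-1.67, 0.0834). The count was 3 without mouse 3334, 3350 or 3370. All 8 CCT genes were called higher in the same comparison, with a median of 2.0. The last CM libraries came from months 4 to 10, so time since induction differs between the arms here.

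Ctrl mice themselves ended far below their start. At month 10 against month 0, 8 of 10 members were called lower in limma, all but Bag3 and Hspb1, beside 72.7% of all genes called lower and 83.1% in either direction. The members' median log2 fold change was -1.91, and that of all genes was -1.81. Hspa1a stood at -1.72, -1.35, -0.68, -0.12, -0.05, 1.28 and 3.14 log2 CPM at month 10, against 2.35, 2.59, 2.65, 3.33, 3.38, 3.97 and 4.95 log2 CPM at month 0, a change of -3.25 ± 0.50 (limma adjusted p = 0.00129). Hspa8 was lower by -2.41 ± 0.32 (adjusted p = 0.000833) and Hsp90aa1 by -2.20 ± 0.25 (0.000508). With median-ratio scaling 5 members were called, 3 lower and 2 higher. The shares of all genes above are for the deposited values, so this count has no background beside it. Hspa1a (-1.49 ± 0.49, adjusted p = 0.0344), Hspa8 (-0.65 ± 0.12, 0.00245) and Hsp90aa1 (-0.45 ± 0.15, 0.0338) were lower, while Bag3 (1.68 ± 0.35, 0.00508) and Hsph1 (1.08 ± 0.28, 0.0128) were higher. Of the 8 members called lower as deposited, Hsph1, Dnajb1 and Hspd1 changed sign between the scales. Bag3 turned too: as deposited it was not called and was lower in 5 of 7 mice. Globin moved with the month: reads of the 4 globin genes made up a median of 31.2% of Ctrl libraries at month 10 (4.21% to 38.5%), against 1.02% at month 0 (0.473% to 1.78%). All 10 erythroid and all 8 platelet markers were called higher at month 10, with medians of 4.07 and 2.90. Their part in the members' values was not tested beyond the rescaled values given here.

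**Figure D4:**
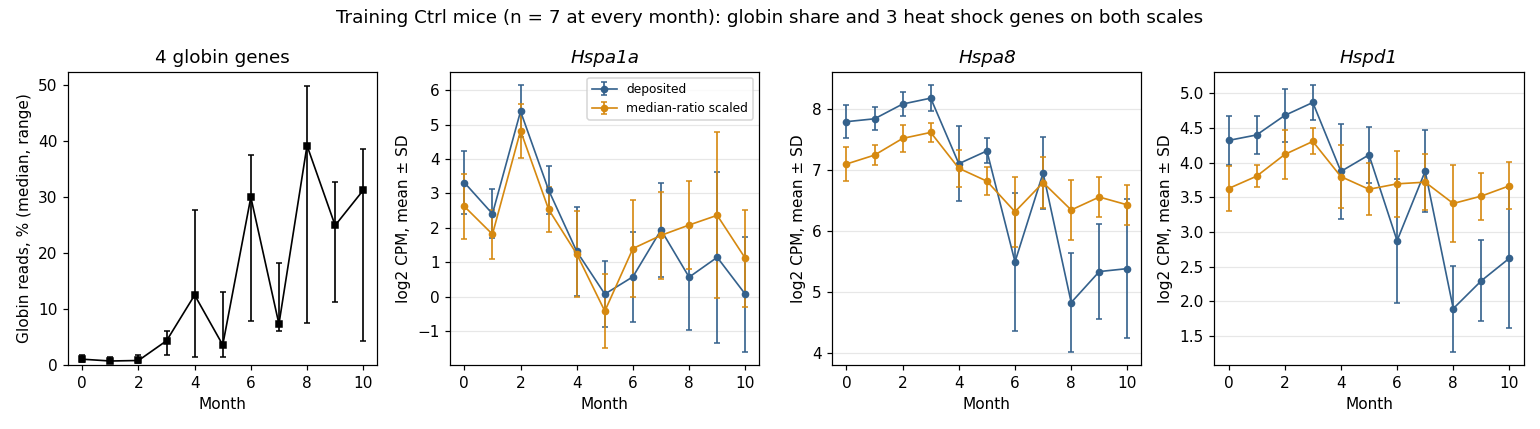
Left panel: the percent of reads from 4 globin genes (median, bars from lowest to highest) by month in the 7 training Ctrl mice. Other panels: mean ± SD of log2 CPM for Hspa1a, Hspa8 and Hspd1 by month, as deposited and after median-ratio scaling. The late dips of Hspa8 and Hspd1 fall in months of high globin and are much smaller after scaling, while the month 2 peak of Hspa1a stays on both scales.

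The weekly mice, with 1 library a mouse and week, gave values with no test. CM mouse 3200 had Bag3 at 2.10, 3.56 and 3.70 log2 CPM at weeks 10, 14 and 18, and Ctrl mouse 3202 had 2.11, 2.30 and 2.19 log2 CPM at the same weeks. CM mouse 3131 had Bag3 at 2.39, 4.01 and 4.49 log2 CPM at weeks 20, 24 and 28, CM mouse 3130 had 2.51, 3.89 and 3.96 log2 CPM at weeks 20, 24 and 25, and Ctrl mouse 3127 had 2.45, 2.71 and 2.78 log2 CPM at weeks 20, 24 and 28. The first libraries of the CM mice lay at the Ctrl level, and every later CM library was above every Ctrl library. Hsp90aa1 was at 7.35 to 8.00 log2 CPM in the CM libraries after the first of each mouse, against 7.06 to 7.56 log2 CPM in the Ctrl libraries after the first. The 2 ranges overlap. The 7.35 was CM mouse 3130 at week 25, which has no matching Ctrl library. That mouse had 7.61 log2 CPM at week 20, when Ctrl mouse 3127 had 7.45 log2 CPM. Hspa1a differed between these mice in both directions. CM mouse 3130 had 4.27 and 4.37 log2 CPM at weeks 20 and 24, against 3.64 and 3.95 log2 CPM in Ctrl mouse 3127, and fell to 2.68 log2 CPM at week 25. CM mouse 3131 was below Ctrl mouse 3127 at each week, with 2.72, 2.83 and 1.65 log2 CPM at weeks 20, 24 and 28, against 3.64, 3.95 and 4.17 log2 CPM. CM mouse 3200 had 1.26, 2.73 and -0.35 log2 CPM at weeks 10, 14 and 18, against 1.24, 4.45 and 3.86 log2 CPM in Ctrl mouse 3202. In each weekly CM mouse the last library had the lowest Hspa1a of that mouse.

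Some pairs of members varied together from library to library, by Pearson's r. These correlations are descriptions over libraries that share mice, and each is taken after removing the mean of the library's arm and time. After median-ratio scaling, Dnajb1 and Hspa1b had r = 0.83 in the training table, and of 11264 genes Hspa1b was the one most like Dnajb1. Hspd1 and Hspe1, which share a promoter region, had r = 0.68 there, and Hspd1 was the gene most like Hspe1. Hspa1a and Hspd1 had only r = 0.16. In the validation table, Dnajb1 and Hsph1 had r = 0.91 and Hsp90aa1 and Hspd1 had r = 0.85 on the same scale. Bag3 was least like the others in the validation table, at r = 0.41 or less with every member, and in the training table its highest was 0.39.

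**Figure D5:**
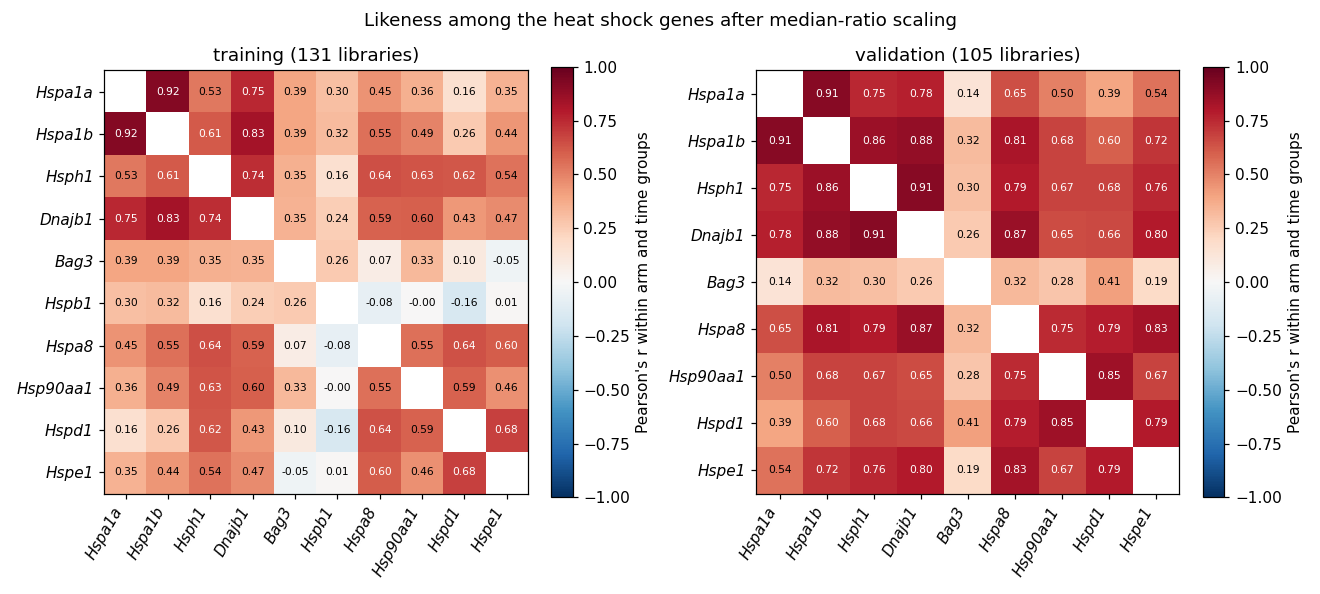
Pearson's r between members over training libraries (left) and validation libraries (right) in groups of 2 or more, after median-ratio scaling and removal of arm and time means; axes list the genes and the colour scale runs from -1 to 1. Hspa1a and Hspa1b have r of 0.92 (left) and 0.91 (right), Dnajb1 and Hsph1 also reach 0.91 on the right, and Bag3 reaches at most 0.39 and 0.41 with any other member.

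Among all other genes, Dnaja1 (r = 0.66), Dusp1 (0.65), Dedd2 (0.65), Ets2 (0.65) and P4ha1 (0.64) were most like Hspa1a in the deposited training values. In the validation libraries the same 5 had r = 0.74, 0.22, 0.57, 0.37 and 0.62, with Dnaja1 again the most like it of the genes outside the group. For Hspd1 the training table gave Cct6a (0.93), St13 (0.93), Cct4 (0.93), Chordc1 (0.92) and Tcp1 (0.92), of which 3 are CCT subunits and St13 and Chordc1 are cochaperones. These had r = 0.88, 0.83, 0.78, 0.82 and 0.80 in the validation table, where Stip1 (0.92), Fkbp4 (0.90), Hsp90ab1 (0.89), Ahsa1 (0.89) and Cct3 (0.89) led. With median-ratio scaling Cct6a had r = 0.81 with Hspd1 in the training table.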

How the data were processed

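Total RNA from blood of the 2 cohorts was sequenced. The submitters' processing notes name STAR, Subread featureCounts and GRCm38 without versions. The deposited values are log2 CPM, 1 table a cohort, with low genes removed by the authors at 0.5 CPM in 2 samples (training) and 5 CPM in 2 samples (validation), per the file names. Undoing the scale with a prior of 0.25 reads gave whole reads for 100.0% of values in each table, within 0.01 reads, from which reads per gene are quoted.

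Members were matched by Ensembl ID and symbol. The members and the gene lists were chosen with earlier results of these data known. Tests were limma 3.58.1 (R 4.3.3, trend) on the deposited log2 CPM of all genes, with Benjamini-Hochberg adjustment over all genes of a table and a threshold of 0.05. Arm comparisons used 1 month at a time with sex as a covariate, and comparisons between times of the same mouse used the mouse as a block, since the labels give the mouse. Replicates are separate mice. The F tests over months were added after the data had been seen. The text names all 10 members, of each gene list up to 3 called genes with the largest absolute log2 fold change, the 5 genes most like Hspa1a and Hspd1, selected pairs of members, and Kit. Alternatives were median-ratio scaling, limma-voom on the recovered reads, a filter at mean log2 CPM above 1, dropping the block or the sex term, and leaving out each mouse. Leaving out the 6 libraries of mixed sex signal was added after the data had been seen. The limma arm test of training month 1 was checked on simulated data with 200 changed genes. The paired, interaction, F and limma-voom tests were not checked in this way. Levels between genes are per kilobase of exon union. Exon lengths are from GENCODE, gene and promoter coordinates from RefSeq.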

Additional observations from a re-analysis of the deposited data

Results flagged for a closer look

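Of 313 groups of 4 to 10 libraries, 18 (5.75%) held a library that stood apart from the rest of its group by Dixon's criterion, and chance alone flags about 1 in 20. A further 2 groups, of Hspb1 in training Ctrl mice, had at most 3 reads in every library and were not tested. CM mouse 3334 at training month 2 was far above the other CM mice for Hspa1a (7.70 log2 CPM, next 4.67) and Hspa1b (8.37, next 5.49). Ctrl mouse 2705 at validation month 0, a library of mixed sex signal, was highest for Hsph1 (8.63 log2 CPM), Hsp90aa1 (7.60), Hspd1 (7.14) and Hspe1 (5.87). Ctrl mouse 3340 was highest for Hspa1b at training month 0 (5.75 log2 CPM) and for Hsph1 at month 1 (7.43). CM mouse 2718 was highest for Hspa1b at validation month 4 (5.35 log2 CPM) and for Hspd1 at month 5 (6.89), and Ctrl mouse 2720 for Hspd1 at validation month 6 (5.72).

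Low libraries were CM mouse 3368 for Hspd1 at training months 1 (3.42 log2 CPM) and 5 (3.82), Ctrl mouse 3342 for Hspd1 at month 7 (2.60), Ctrl mouse 3349 for Hsp90aa1 at month 8 (3.34), Ctrl mouse 3335 for Bag3 at month 10 (2.39), Ctrl mouse 2702 for Bag3 at validation month 2 (0.75) and CM mouse 2690 for Hspe1 at validation month 2 (4.21).

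The change to month 1 differed between CM and Ctrl mice of the training cohort for Hspa8 (-0.76, limma adjusted p = 0.0422) and Hsph1 (-1.40, adjusted p = 0.0467). Both genes already averaged higher in CM mice before induction, and these differences include that gap. The change to the last CM library differed from the Ctrl change to month 6 for Hsp90aa1 (2.11, limma adjusted p = 0.00477), Hspd1 (1.65, 0.0236), Hspa8 (1.46, 0.0332) and Hspa1a (-2.52, 0.00804).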

How the results depend on the processing

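Under settings other than leaving out a mouse, all but 10 recomputed counts of called members, over 28 comparisons or tests, stayed within 1.5 times the value given above. With median-ratio scaling the count was 0 in place of 1 for CM against Ctrl at validation month 1, 1 in place of 0 for validation Ctrl month 1 (limma-voom also 1, and 2 with the libraries of mixed sex signal left out), 5 in place of 8 for Ctrl month 10, 0 in place of 2 for the training month 1 change and 2 in place of 6 for CM months 0 to 4. Among the members called lower as deposited at Ctrl month 10, that scaling turned the sign for Dnajb1 (0.28), Hspd1 (0.056) and Hsph1 (1.08). Bag3, not called as deposited, also turned and was called higher. The median of all genes there is -0.06 after scaling, against -1.81 as deposited. Pairing rests on the labels, which name the mouse. The fit over all months with the mouse as a replicate block gave 3 in place of 0 at training month 6 and 0 in place of 1 at validation month 1, and without the block validation CM month 1 had 3 in place of 5 (Hspa1b adjusted p = 0.16, Hspa8 0.08).

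Leaving out 1 mouse at a time moved 33 of 317 counts by over 1.5 times. The ranges were 0 to 1 for the arms at training months 1 and 2 and validation month 1, 2 to 3 for the last training libraries, 3 to 5 and 3 to 4 for leukemia against months 0 and 1, 2 to 6 for training CM month 1, 0 to 2 for validation Ctrl month 1, 0 to 3 for the training month 1 change, 3 to 6 for the last change, 2 to 7 over CM months, 9 to 10 over Ctrl months and 0 to 1 for the interaction. In the other comparisons the count did not move: 5 for validation CM month 1, 8 for Ctrl month 10 and 0 elsewhere.

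Depth limits Hspb1, at 0 to 29 reads, and Hspa1a in the last CM libraries, at 11 to 41 reads. The causes of these differences were not tested.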
